A study of Mus musculus with 6 samples.

Results

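The resting transcriptome of Lewis carcinoma cells kept with vehicle was described from 3 of the 6 samples of the series, those whose treatment label was DMSO. The Lewis line is labelled as mouse lung adenocarcinoma cells, was bought from American Type Culture Collection, and was grown in DMEM with fetal bovine serum. The cells received DMSO, the solvent, for 24 h. The other 3 samples received SD70, a KDM4C inhibitor, and were not used. The labels name no clone, passage or separate culture for the 3 samples, so the spread between them may be technical, and their number is the only replication behind each SD. Poly(A) RNA was sequenced, and each of 16081 listed genes carried an expected read count and an FPKM, a level scaled to transcript length and library size. Levels below are FPKM as mean ± SD (n = 3), and a gene was called detected when it reached 1 FPKM in every sample.

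Lewis carcinoma arose in a mouse lung and is widely used as a tumour that can be transplanted into mice with an intact immune system. Lung epithelium is built from alveolar type I cells, which form the gas exchange surface, alveolar type II cells, which make surfactant, and airway club, goblet, ciliated, basal and neuroendocrine cells. Carcinoma cells can retain the genes of such a lineage, such as keratins and E-cadherin, or express mesenchymal genes, such as vimentin and the transcription factors that repress E-cadherin. Tumour cells in culture also release chemokines and growth factors, which act through receptors on the cells that carry them, and proteases, which cleave proteins outside the cell.

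Library totals were 16814296, 16785878 and 17060424 counts in DMSO 1, 2 and 3. A count of 0 allows up to 3 counts, which is 0.178, 0.179 and 0.176 in 1000000 counts, and this floor covers counting error only. DMSO 1 stood apart from the other 2 samples. The mean chi-square per gene was 3.79 between DMSO 1 and 2, 4.16 between DMSO 1 and 3, and 2.12 between DMSO 2 and 3. Each pair thus differed by more than counting error alone, a reference that leaves out any other spread between samples. Among 9657 genes with a mean count of at least 100 and an FPKM above 0 in every sample, 65 were more than 1.2 times above both other samples in DMSO 1 and 125 were below both by that factor. DMSO 2 gave 34 and 42 such genes, and DMSO 3 gave 38 and 61. The common biological coefficient of variation (BCV), the relative spread beyond counting error, was 0.0395 over 11308 genes and 0.0266 without DMSO 1.

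The difference of DMSO 1 ran with transcript length. Lengths were those implied by each gene's count and FPKM. The 197 genes under 500 bases had a median log2 ratio of -0.17 in DMSO 1 against the mean of the other samples, and the 2740 genes over 4000 bases had 0.04. In DMSO 3 the same classes had 0.08 and -0.05, and in DMSO 2 they had 0.07 and 0.01. Atp5k, a small subunit of the ATP synthase, had 75.2, 94.7 and 102.9 FPKM in DMSO 1, 2 and 3, and Tomm5, a small subunit of the mitochondrial import pore, had normalized counts of 812, 1093 and 1165. Genes higher in DMSO 1 included Ero1l, an oxidase of the endoplasmic reticulum, with 847, 654 and 681 FPKM. What set DMSO 1 apart was not tested.

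**Figure D1:**
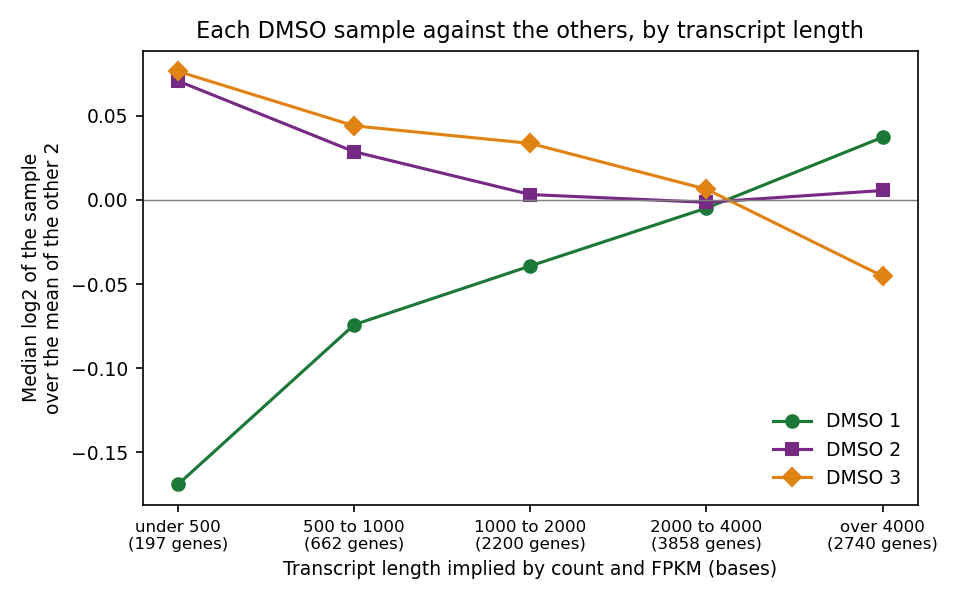
Median log2 ratio of each DMSO sample to the mean of the other 2 (vertical axis) in 5 classes of implied transcript length in bases (horizontal axis), with the number of genes in each class. DMSO 1 is lowest among genes under 500 bases (-0.17) and highest among genes over 4000 bases (0.04).

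Detected genes numbered 10376 of the 16081 listed, or 64.5%. Of these, 6497 were at or above 10 FPKM in every sample, 748 at or above 100 and 93 at or above 1000. At the other end, 841 listed genes had a count of 0 in all 3 samples. The median listed gene had 6.3, 6.29 and 6.2 FPKM in the 3 samples. By FPKM, ribosomal proteins filled most of the top of the list. None of the 13 mitochondrially encoded protein genes was analysed here, so ranks and shares hold among the listed genes. The 10 highest genes held 8.14 ± 0.104% of the summed FPKM, the 100 highest 36 ± 0.292% and the 1000 highest 66.9 ± 0.188%. The 83 listed cytosolic ribosomal protein genes held 23 ± 0.461% of the summed FPKM and 7.16 ± 0.165% of the counts, a smaller share because their transcripts are short. Of the 100 highest genes 60 encoded ribosomal proteins, as did 13 of the 20 highest. By count, which does not correct for length, the top differed, and only 7 of the 20 highest by FPKM were also among the 20 highest by count.

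**Figure D2:**
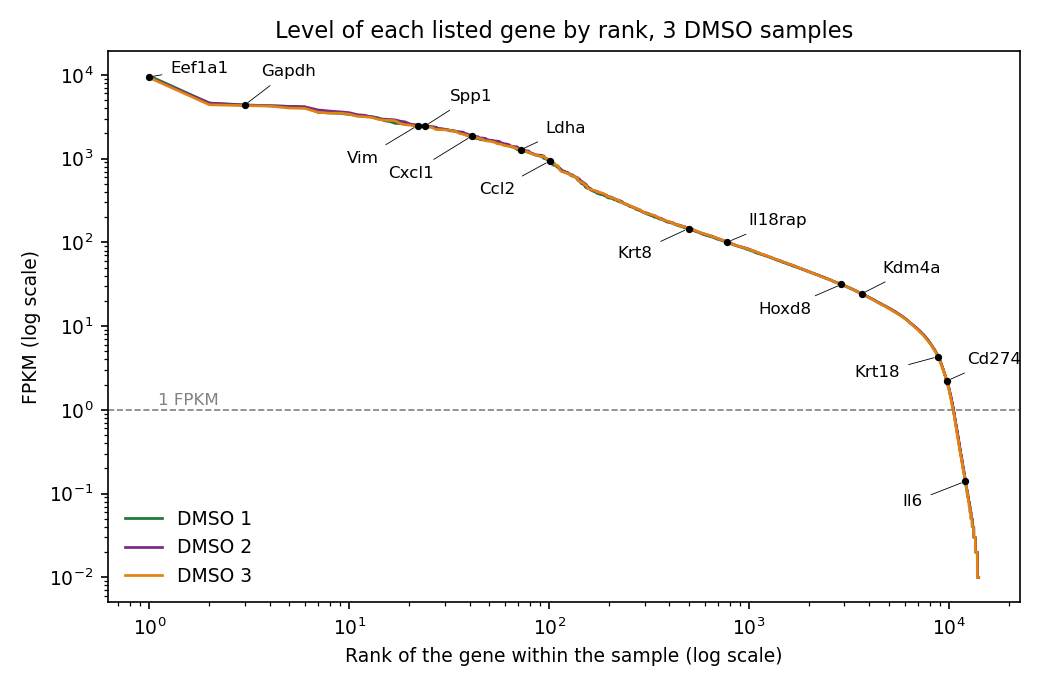
FPKM of every listed gene above 0 against its rank within the sample (both axes log scale) for the 3 DMSO samples, with black points for the mean of named genes at their rank by mean. The 3 curves lie on each other, Eef1a1 leads, and the curve crosses the dashed line of 1 FPKM after about 10542 genes in DMSO 1.

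Eef1a1, the elongation factor that brings aminoacyl-tRNA to the ribosome, was highest, with 9753, 9341 and 9276 FPKM, which was 1.71 ± 0.0553% of the total. Its range did not touch that of the next gene. Ppia (cyclophilin A, a prolyl isomerase) followed with 4211, 4615 and 4397 FPKM and Gapdh (a glycolytic dehydrogenase) with 4600, 4205 and 4299, and these ranges overlapped. Below them stood Rps2 (4311 ± 78.7), Rpl12 (4212 ± 165), Rpl13 (4094 ± 95.8), Rplp1 (3636 ± 159), Rps26 (3553 ± 152), Rps4x (3503 ± 34.5), Rpl35 (3464 ± 172), Rpl10 (3303 ± 93) and Rpl23a (3191 ± 95). Fth1, the ferritin heavy chain that stores iron, had 3171 ± 45.3 FPKM. The rest of the 20 highest were LOC105244208 (2958 ± 99.7, from counts that were not whole), Ptma (prothymosin alpha, 2909 ± 126), Tpt1 (2823 ± 19), Rpl41 (2793 ± 201), Rpl36a (2628 ± 123), Rps27 (2600 ± 271) and Rpl7 (2588 ± 41.1). Ribosomal proteins have many processed copies in the genome, so how reads were shared among copies bears on their levels.

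Just below these housekeeping genes were genes that tell more of the cell. Vim, the intermediate filament of mesenchymal cells, had 2639, 2367 and 2460 FPKM and ranked 22nd. Spp1 (osteopontin), a secreted phosphoprotein, had 2539, 2491 and 2365 FPKM and ranked 24th. The ranges of Spp1 and Vim overlapped. Cxcl1, a chemokine that attracts neutrophils, ranked 41st with 2061, 1743 and 1775 FPKM. Ldha, which makes lactate from pyruvate, had 1276, 1271 and 1272 FPKM, and Ldhb had 3.16, 2.95 and 3.18, so that Ldha stood 412 ± 16.9-fold above its paralogue. Also among the 100 highest were the galectin Lgals1 (1532 ± 133), the metallothioneins Mt1 (1349 ± 39.9) and Mt2 (1199 ± 88.8), Hmga1, a chromatin protein of dividing cells (1291 ± 54.7), and Gstp1, a glutathione S-transferase (1198 ± 25).

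Promoters are shown for 3 of these high genes, together with a high receptor gene (Il18rap) and a receptor gene at a count of 0 (Egfr), so that expressed and silent genes can be compared. Each runs from 250 bases before to 50 bases after the start in the RefSeq table of GRCm38.p6, 5′ to 3′ on the gene's strand. Capitals mark CG dinucleotides and, in Vim, the letters TATAAA. Eef1a1 is at chr9:78481675-78481974 (minus strand), Vim at chr2:13574061-13574360, Cxcl1 at chr5:90890995-90891294, Il18rap at chr1:40515112-40515411 and Egfr at chr11:16751953-16752252 (all plus strand).
Eef1a1: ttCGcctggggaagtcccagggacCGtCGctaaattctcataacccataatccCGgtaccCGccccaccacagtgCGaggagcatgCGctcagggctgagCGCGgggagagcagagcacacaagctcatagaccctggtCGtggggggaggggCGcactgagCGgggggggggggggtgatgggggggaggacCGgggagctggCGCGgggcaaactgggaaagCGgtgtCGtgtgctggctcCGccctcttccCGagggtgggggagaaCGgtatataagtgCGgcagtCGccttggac
Vim: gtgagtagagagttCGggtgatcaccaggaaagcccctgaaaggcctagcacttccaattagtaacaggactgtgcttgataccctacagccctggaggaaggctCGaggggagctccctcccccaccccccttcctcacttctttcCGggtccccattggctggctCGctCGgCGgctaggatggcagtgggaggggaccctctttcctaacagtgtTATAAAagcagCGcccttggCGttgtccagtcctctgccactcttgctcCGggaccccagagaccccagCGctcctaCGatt
Cxcl1: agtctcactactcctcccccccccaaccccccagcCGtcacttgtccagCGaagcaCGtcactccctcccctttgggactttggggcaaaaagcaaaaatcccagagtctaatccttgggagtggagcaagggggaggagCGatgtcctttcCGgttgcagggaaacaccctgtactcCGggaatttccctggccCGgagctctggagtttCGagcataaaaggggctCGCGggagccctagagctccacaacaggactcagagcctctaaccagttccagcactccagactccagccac
Il18rap: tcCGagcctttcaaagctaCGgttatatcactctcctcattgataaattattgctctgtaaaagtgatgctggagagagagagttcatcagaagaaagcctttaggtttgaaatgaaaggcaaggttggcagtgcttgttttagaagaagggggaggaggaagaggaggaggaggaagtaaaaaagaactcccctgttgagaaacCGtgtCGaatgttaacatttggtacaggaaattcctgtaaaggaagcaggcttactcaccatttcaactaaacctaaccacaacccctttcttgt
Egfr: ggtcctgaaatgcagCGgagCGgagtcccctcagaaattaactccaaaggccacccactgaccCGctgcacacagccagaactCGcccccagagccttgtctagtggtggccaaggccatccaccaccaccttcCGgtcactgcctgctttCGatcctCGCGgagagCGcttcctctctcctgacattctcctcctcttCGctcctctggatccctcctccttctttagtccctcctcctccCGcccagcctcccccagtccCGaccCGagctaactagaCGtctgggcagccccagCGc

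The Eef1a1 promoter held 22 CG, that of Vim 11, that of Cxcl1 10, that of Egfr 15 and that of Il18rap 4. Only Vim of these 5 held TATAAA on the printed strand, starting 32 bases before the start. Over classes of genes, CG density went with detection. Among genes with exactly 1 promoter in the table, the 6700 detected genes had a median of 22 CG per 300 bases and the 547 listed genes with a count of 0 in every sample had 5. All 22862 such promoters had a median of 7. The 537 genes with a mean over 100 FPKM had a median of 22 CG and the 2402 with a mean over 1 and up to 10 FPKM had 20, so the step lay between undetected and detected genes rather than among detected genes. TATAAA on either strand was found in 6.4% of promoters of detected genes, in 16.6% of those at a count of 0 and in 14.8% of all. It was found in 11% of promoters of genes over 100 FPKM and in 14.8% of those of the 100 highest genes (61 with a single promoter), so its share did not fall steadily with level. GGGCGG on either strand was found in 69% of promoters of detected genes, 32.5% of those at a count of 0 and 35.2% of all. A run of C followed by 4 pyrimidines exactly at the annotated start, the 5′ end known from messages of the translation machinery, occurred in 12 of 53 ribosomal protein promoters (22.6%) and in 2.47% of all promoters. Egfr, at 15 CG and a count of 0, and Il18rap, at 4 CG and a high level, are exceptions to the class medians. A match is a description of letters and not of a bound site.

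Of the lists that mark cell types, all proliferation genes were detected, and the mesenchymal list held the genes with the highest levels. All 24 proliferation genes were detected, led by Pcna, the DNA polymerase clamp (334 ± 8.7), Ube2c, a ubiquitin-conjugating enzyme of mitosis (254 ± 5.25), Top2a, a topoisomerase of dividing cells (191 ± 4.76), Mcm6 (152 ± 5.81) and Mcm3 (133 ± 3.23), both of the replicative helicase. Of the 16 marker lists together, 44 of 145 listed genes were detected, against 64.5% of all listed genes.

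Mesenchymal genes were detected for 13 of 20, a share near the 64.5% of all listed genes, so the list stood out by the levels of some members and not by its count. Behind Vim came S100a4 (571 ± 60.3), Col3a1, a fibrillar collagen (144 ± 0.9), Twist2 (88.4 ± 2.56) and Fn1, fibronectin, with 84.1, 68.9 and 67.9 FPKM. Fn1 was highest in DMSO 1 and its range overlapped that of Prrx1 (62.6 ± 4.73). The transcription factors that repress E-cadherin were all detected, with Twist1 at 33.7 ± 0.847, Snai2 at 24.8 ± 0.746, Zeb1 at 17.3 ± 0.482, Zeb2 at 12.1 ± 0.759 and Snai1 at 9.2 ± 0.298. The list was not uniform. Cdh2 (N-cadherin) had a count of 0 in every sample, and Col1a1 (0.0333 ± 0.0115), Col1a2 (0.04 ± 0.01), Acta2 (smooth muscle actin, 0.12 ± 0.05), Tagln (0.0333 ± 0.0289), Thy1 (0.0133 ± 0.0231) and Tnc (0.01 FPKM in each) were below 10 counts. Of 9 listed fibroblast and mural genes 4 were detected, namely Dcn (decorin, 36.2 ± 1.46), Pdgfra (16.7 ± 0.44), Pdgfrb (6.56 ± 0.0872) and Col6a3 (1.85 ± 0.233).

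Epithelial genes were detected for 6 of 21, against 64.5% of all listed genes. Krt8, the type II keratin of simple epithelia, had 143.6, 151.3 and 144.2 FPKM. Its usual type I partner Krt18 had 4.48, 3.73 and 4.76 FPKM, a ratio of 34.3 ± 5.49. The other 4 were Tjp1 (46.8 ± 0.979), Elf3 (5.44 ± 0.587), St14 (3.89 ± 0.539) and Ocln (3.26 ± 0.264), and the range of Krt18 met that of Elf3 and overlapped that of St14. Cdh1 (E-cadherin) had counts of 1, 0 and 1, and Epcam had 0, 1 and 1. Esrp1, a splicing factor of epithelia, and Prom1 had a count of 0 in every sample. In all, 13 of the 21 stayed below 10 counts in every sample. Among 9 classical cadherins, only Cdh11 reached the detection level, at 2.42 ± 0.217 FPKM.

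**Figure D3:**
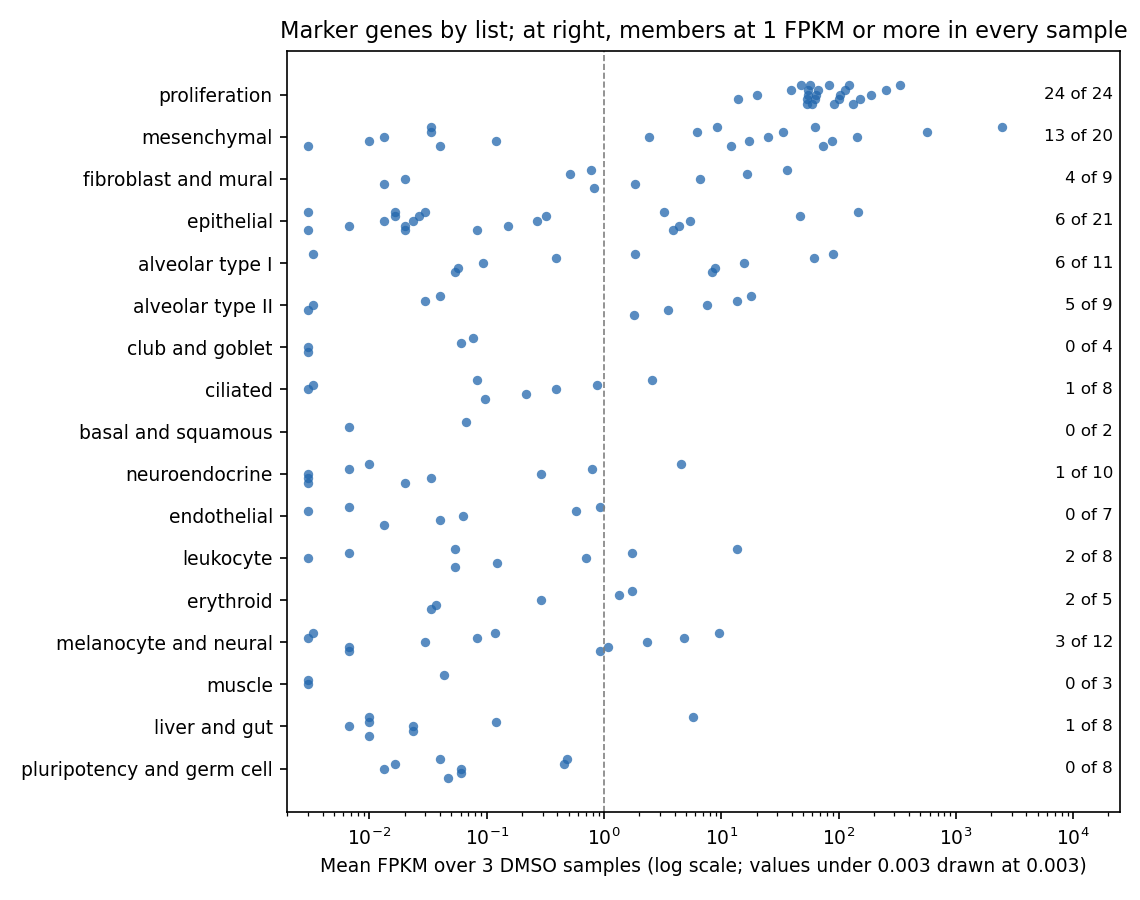
Mean FPKM over the 3 DMSO samples (log scale) of each listed marker gene, 1 point a gene, in 17 lists, with the detected share at the right and a dashed line at 1 FPKM. All 24 proliferation genes are detected, the highest points belong to the mesenchymal list (13 of 20 detected), and club, basal, endothelial, muscle and germ cell lists have no detected member.

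The lung label was checked against the markers of lung cells. Alveolar type II genes were detected for 5 of 9 listed, namely the transcription factor Etv5 (17.9 ± 0.845), the lipid enzyme Lpcat1 (13.7 ± 0.39), the surfactant lipid transporter Abca3 (7.57 ± 0.0702), the protease Napsa (3.54 ± 0.437) and Foxa2 (1.8 ± 0.159). The defining gene Sftpc had counts of 0, 0 and 1, and Lamp3 had 0 in every sample. Sftpa1, Sftpb, Sftpd and Nkx2-1 were not analysed here. Alveolar type I genes were detected for 6 of 11, led by Cav1 (90.1 ± 4.42), Emp2 (62.3 ± 3.12), Gprc5a (15.6 ± 0.515), Hopx (8.88 ± 0.981) and Rtkn2 (8.4 ± 1.3). These are also made by other cells, and the more restricted Ager (0.393 ± 0.133) and Aqp5 (0.0567 ± 0.0493) were under 1 FPKM. None of 4 club and goblet genes and neither of the 2 listed basal genes was detected. Of 8 ciliated genes only Rfx3 was detected (2.59 ± 0.106), with Foxj1, the master regulator of motile cilia, at a count of 0. Once FPKM were rescaled to a common sum, 2 ciliated genes passed. Of 10 neuroendocrine genes only Ncam1 was detected (4.56 ± 0.325), with Chga, Calca and Insm1 at 0. The counts of both alveolar lists are read against the 64.5% of all listed genes that were detected, and Sftpc, Ager and Aqp5 were singled out after their values were seen.

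Markers of other cell types were detected for smaller shares than the 64.5% of all listed genes. None of 7 endothelial genes reached 1 FPKM in every sample, the highest being Cdh5 (0.927 ± 0.0603), which passes once FPKM are rescaled to a common sum, and Vwf had a count of 0. Of 8 leukocyte genes, Cd68 (13.6 ± 0.471) and Laptm5 (1.72 ± 0.346), both lysosomal proteins, were detected, and Ptprc (CD45), carried by all leukocytes, had a count of 0 in every sample. The summed level of the leukocyte list was 15.7 to 16.9 FPKM over the samples, that of the endothelial list 1.29 to 1.84 and that of the fibroblast and mural list 61.4 to 64.6. Erythroid genes gave 2 of 5 (Hba-a1 at 1.72 ± 0.406, from 10 to 14 counts, and Epor at 1.33 ± 0.0252). Melanocyte and neural genes gave 3 of 12, or 5 after rescaling (Tubb3 at 9.6 ± 0.643, Mitf at 4.81 ± 0.431 and Mbp at 2.31 ± 0.213), liver and gut genes 1 of 8 (Afp, alpha-fetoprotein, at 5.78 ± 0.403), and muscle and germ cell lists none. Of 6 genes of the sex-linked list only Eif2s3y was listed, at 0.03 ± 0.03 FPKM.

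HOX genes record position along the body axis. Of 39 in RefSeq, 28 were listed and 10 detected, against 64.5% of all listed genes. The HoxD cluster had the highest summed level (60.8 ± 1.07 FPKM), followed by HoxA (27.5 ± 1.29) and HoxC (6.64 ± 0.52), and HoxB was near 0 (0.247 ± 0.0416), with none of its 4 listed genes detected. Hoxd8 had 31.99, 31.27 and 31.21 FPKM. Hoxd10 (13.1 ± 0.561) and Hoxd9 (12.8 ± 0.286) overlapped in range, and Hoxa9 (10.6 ± 0.891) and Hoxa10 (7.9 ± 0.443) came next. Other patterning factors were also present at moderate levels. T-box genes gave 3 of 11 listed, Tbx15 (7.24 ± 0.496), Tbx4 (2.86 ± 0.318) and Tbx18 (2.29 ± 0.119). PAX genes gave 4 of 6, Pax9 (7.26 ± 0.372), Pax6 (6.42 ± 0.553), Pax3 (4.98 ± 0.425) and Pax5 (2.03 ± 0.0416). SOX genes gave 2 of 9, Sox9 (16 ± 1.35) and Sox12 (8.58 ± 0.211). No GATA factor was detected, the highest being Gata2 at 0.877 ± 0.0493. Once FPKM were rescaled to a common sum, or at 10 counts in every sample, 1 GATA factor passed.

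**Figure D4:**
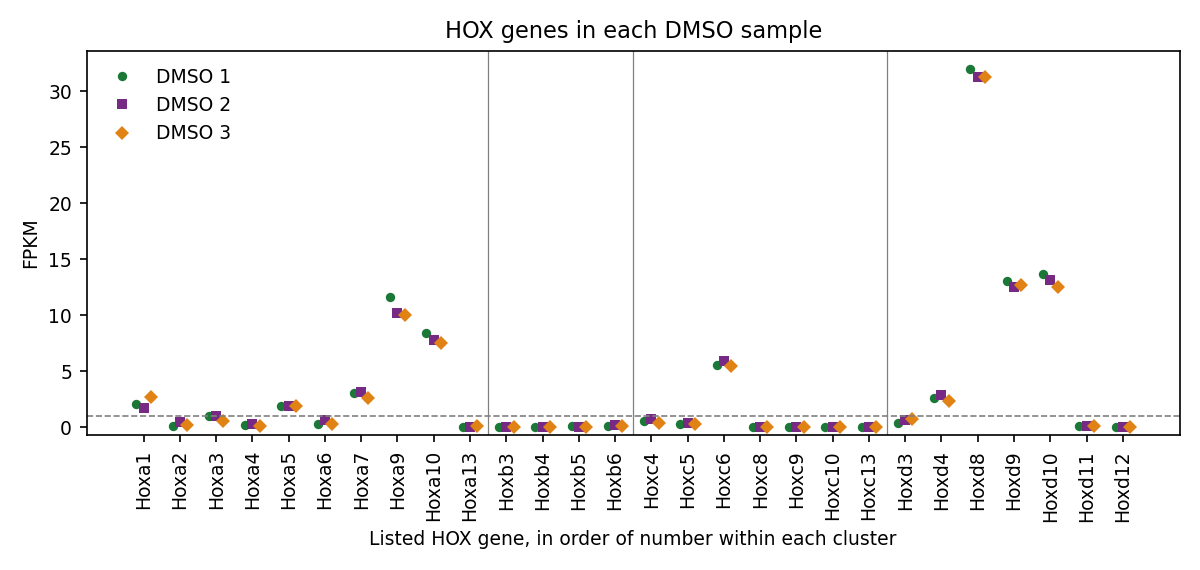
FPKM (linear axis) of the 28 listed HOX genes in each DMSO sample, in order of number within clusters A, B, C and D from left to right, with a dashed line at 1 FPKM. Hoxd8 is highest (31.49 FPKM on average), levels fall to near 0 at the ends of clusters A and D, and the 4 listed HoxB genes are near 0.

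Oncogenes were detected for 33 of 37 listed and tumour suppressors for 31 of 33, against 64.5% of all listed genes. The highest oncogenes were Cdk4, a kinase that drives entry into S phase (347 ± 9.36), Hmga2, a chromatin protein of embryonic and tumour cells (294 ± 4.87), Ctnnb1, beta-catenin (259 ± 3.53), Myc (160 ± 8.08) and Nfe2l2, the transcription factor NRF2 (147 ± 1.53). Among small GTPases, Rras had 87.6 ± 5.88 FPKM, Nras 29.6 ± 0.728, Hras 23.1 ± 0.751, Rras2 18.3 ± 1.26 and Mras 10.7 ± 0.281. Egfr was at a count of 0. The tumour suppressors were led by Cdkn1a (p21), with 123.5, 104.6 and 113.6 FPKM, and Trp53, with 48.2, 49 and 50.5. Others were Smarca4 (40.7 ± 0.506) and Lats1 (28.4 ± 1.03). Cdkn1c had 1, 1 and 0 counts, Fhit had 2 in each, and Cdkn2a and Cdkn2b were not analysed here. The levels do not show whether a transcript carries a mutation.

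The KDM4 enzymes, which remove methyl groups from histone H3, are the family to which the target of SD70 belongs. Kdm4a had 25.2, 24 and 24 FPKM, Kdm4b had 14.7, 14.3 and 13.7, and Kdm4c had 12.1, 11.1 and 11.8. The 3 ranges did not overlap, and Kdm4a stood 2.1 ± 0.0669-fold above Kdm4c. Kdm4d had counts of 0, 0 and 1.

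Several genes on the lists of secreted factors had high transcript levels, and secretion was not measured. Of cytokines and related factors, 26 of 48 listed were detected, a smaller share than the 64.5% of all listed genes. Spp1 led, followed by Lgals1, by Mif, a factor that restrains macrophage migration (1083 ± 21.6), and by the calcium-binding S100a6 (1055 ± 48.9) and S100a11 (390 ± 8.72). Lgals1 was lowest in DMSO 1, with 1379, 1626 and 1590 FPKM. The ranges of Mif and S100a6 overlapped. Il6 was at 0.14 ± 0.0693 FPKM from 1 to 3 counts, and Tnf, Ifnb1, Il4, Il13, Fasl, Lta and Tnfsf10 had a count of 0 in every sample.

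Chemokines were detected for 12 of 29 listed ligands, also a smaller share than the 64.5% of all listed genes. Below Cxcl1 stood Ccl2, which attracts monocytes, with 937, 947 and 940 FPKM, and Cxcl2, another neutrophil attractant, with 319, 262 and 271. Ccl7 (59.8 ± 2.2) and Ccl20 (45.1 ± 1.12) followed. The 5 ranges did not overlap. Cxcl1 and Cxcl2 were highest in DMSO 1, and Ccl2 was flat across the samples. Without DMSO 1 the order of the 5 was the same. Of the 15 listed chemokine receptors only Ackr3, a scavenging receptor for Cxcl12, was detected (38.9 ± 1.94).

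Growth factors were detected for 33 of 58 listed, not far from the 64.5% of all listed genes. Adm (adrenomedullin, a vasodilator peptide) had 169, 129 and 140 FPKM, highest in DMSO 1. Vegfa, the main angiogenic factor, had 84.3 ± 4.98 FPKM, 1.73 ± 0.0684-fold above Vegfb (48.8 ± 2.96). Apln (apelin, 65.4 ± 1.59) and the EGF-family ligand Areg (64.6 ± 5.52) overlapped in range, and Angptl2 had 50.4 ± 1.51 FPKM. Ctgf, Fst, Fgf10 and Nrg1 had a count of 0 in every sample.

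Matrix proteins and proteases were detected for 36 of 47, with 64.5% of all listed genes detected. The 5 highest were the lysosomal proteases Ctsl (803 ± 17.2) and Ctsb (620 ± 31.5), the lysosomal protein precursor Psap (293 ± 11.7), the protease inhibitor Cst3 (222 ± 4.71) and Igfbp4, which binds insulin-like growth factors (211 ± 4.39). Of 16 listed matrix metalloproteinases 10 were detected, led by the membrane-bound Mmp14 (66.2 ± 2.31) and by Mmp3 (31.9 ± 2.05), which cleaves many matrix proteins. Of 37 collagens 11 were detected, and after Col3a1 these were led by the basement membrane chains Col4a1 (79.5 ± 3.77) and Col4a2 (54 ± 0.87). Prostaglandin synthesis was represented by both cyclooxygenases. Ptgs1 had 146 ± 4.66 FPKM and Ptgs2 138.3, 110.8 and 112.3, with a ratio of 1.22 ± 0.111, and the synthases Ptges3 (164 ± 1) and Ptges (125 ± 7.74) and the phospholipase Pla2g4a (42.9 ± 0.355) were also detected.

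Of receptor tyrosine kinases, 21 of 47 listed were detected, against 64.5% of all listed genes. Fgfr1 had 75.5, 75.5 and 75.3 FPKM, followed by Axl (59.3 ± 1.51), the ephrin receptor Epha2 (40.6 ± 1.1), the Wnt receptor Ryk (39.9 ± 1.3) and the collagen receptor Ddr2 (38.5 ± 0.843). The ranges of Epha2, Ryk and Ddr2 overlapped from neighbour to neighbour. Egfr, Kit, Flt4, Fgfr4, Epha7 and Musk had a count of 0 in every sample. Among receptors for VEGF, the co-receptor Nrp2 had 127.7, 114.7 and 112.6 FPKM, its paralogue Nrp1 and Flt4 had a count of 0, Flt1 had 0.243 ± 0.0924 FPKM and Kdr had 1, 1 and 0 counts.

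Integrins were detected for 10 of 21 listed and cytokine receptors for 35 of 62, beside 64.5% of all listed genes. Itgb1, the common beta chain, had 283 ± 12.1 FPKM. Itgb7, a chain known from lymphocytes, came next with 76.1, 75.7 and 79.2 FPKM, while its 2 known partner chains were low, Itga4 at 0.02 ± 0.01 and Itgae at 0.16 ± 0.0346. Itgav (39.8 ± 1.24), Itga3 (32.2 ± 1.59) and Itga5 (27.6 ± 1.39) followed, and Itgb6 had a count of 0. The highest cytokine receptor was Il18rap, the accessory chain of the IL-18 receptor, with 101.1, 102.4 and 98.9 FPKM. The ligand-binding chain Il18r1 had 0.23, 0.24 and 0.18 FPKM, from 15, 16 and 12 counts. After Il18rap came Tgfbr3 (42.6 ± 1.99), Ifngr2 (39 ± 0.891), Ifnar2 (36.3 ± 3.38) and Il6st (29.1 ± 1.67). Neither Itgb7 nor Il18rap overlaps another gene of the RefSeq table, on whichever strand.

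Nuclear receptors were detected for 23 of 39 listed, near the 64.5% of all listed genes, led by Ppard (36.3 ± 1.89), Nr1h2 (31.3 ± 2.23), Rxrb (29.2 ± 1.18), Rarg (28.6 ± 1.34) and the glucocorticoid receptor Nr3c1 (27.8 ± 1.48), and the last 4 overlapped from neighbour to neighbour. Ppara, Nr1i3 and Nr2e3 had a count of 0. Of 25 listed death and TNF receptors 11 were detected, with Tnfrsf9 (4-1BB, a costimulatory receptor of T cells) highest at 83.1, 76.1 and 77.9 FPKM, followed by Tnfrsf12a (35.6 ± 2.92), Tnfrsf1a (24.5 ± 1.03), Tnfrsf1b (23 ± 1.12) and Ltbr (21.5 ± 0.472). Of 23 pattern recognition receptors 11 were detected, led by the DNA sensor Aim2 (51 ± 3.14), Tmem173 (STING, 24.3 ± 1.44), Mavs (24.1 ± 0.59), Tlr4 (17.4 ± 0.453) and Ddx58 (10 ± 0.655). The span of Aim2 overlaps that of Cadm3 in RefSeq, and the strand of the reads is not stated. Whole spans and not exons were compared, so whether reads of such genes can be told apart was not tested.

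The 17 genes of the MHC class I pathway were all detected, beside 64.5% of all listed genes, with B2m, the light chain, at 1179 ± 23.5 FPKM, H2-D1 at 285 ± 7.07 and H2-K1 at 95 ± 3.82. H2-D1 stood 3 ± 0.112-fold above H2-K1, although the similarity of these heavy chains makes the division of reads between them uncertain. Of 7 listed class II genes only H2-DMb1 was detected (21 ± 0.393), and H2-Aa had a count of 0. Of 20 checkpoint and immune ligand genes 12 were detected, a share near that of all listed genes. The highest beside Ptgs2 were the stress ligand Ulbp1 (112 ± 3.06), Pvr (97.8 ± 7.4), the phagocytosis inhibitor Cd47 (77.4 ± 1.49) and Raet1e (36.2 ± 1.71). Ulbp1 shares its span with Gm46209 in RefSeq. Cd274 (PD-L1) was lower, at 2.39, 2.25 and 2.02 FPKM.

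Ligands were then set beside their receptors for 42 ligands, a list drawn up after the levels had been seen. Of these, 40 were detected. A full receptor was detected for 10 of the 40 and was not detected for 26. The other 4 could not be judged, because a receptor gene was not analysed here. Among all listed genes 64.5% were detected, and some receptors counted as full only if several chains were detected at once. The split is therefore a description of the chosen pairs. The pairs with both sides included Spp1 and Cd44 (97.2 ± 7.53), Tnfsf9 (17.2 ± 0.431) and Tnfrsf9, Pdgfa (14.3 ± 0.845) and Pdgfra, Tgfb1 (33.7 ± 2.84) with both of its receptor chains, and Adm with Calcrl (8.59 FPKM) and Ramp2 (2.53 FPKM). The ligands with no detected receptor included Cxcl1 and Cxcl2 (Cxcr2 at 0.06 FPKM), Vegfa (Flt1 and Kdr, its signalling receptors, although the co-receptor Nrp2 was detected), Areg (Egfr), Csf1 at 62.6 ± 3.38 FPKM (Csf1r at 0.00667), Kitl at 17.5 ± 0.396 (Kit at 0) and Apln (Aplnr at 0.00667). Mif is also among the 26, with Cd74, the only receptor entered for it, at 0.953 FPKM, just below the threshold. The split was not repeated at other thresholds or with other receptors. Transcripts do not show whether a protein reaches the surface.

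**Figure D5:**
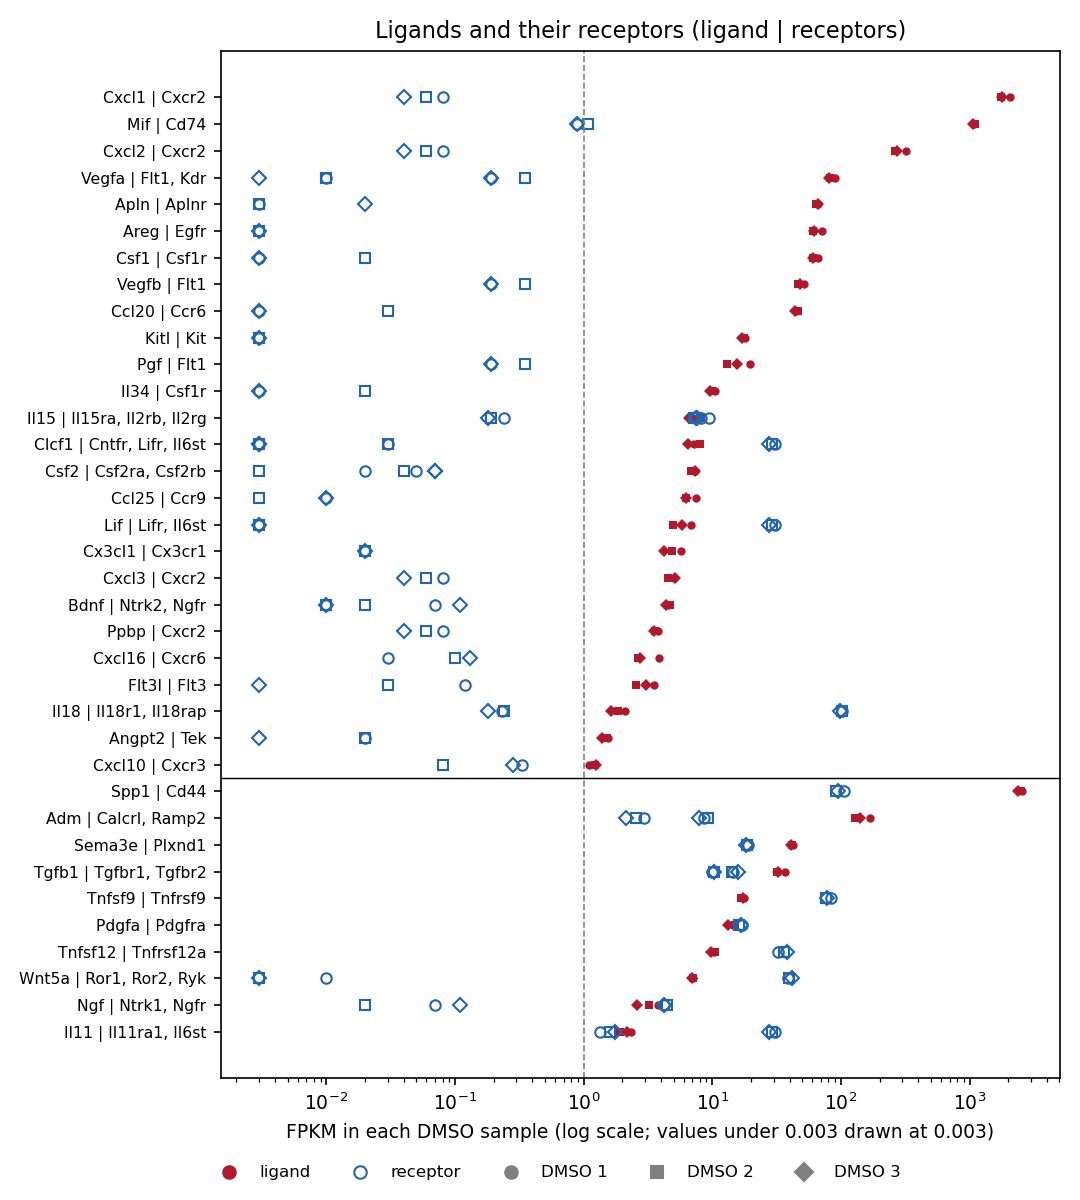
FPKM (log scale) in each DMSO sample of 36 detected ligands (filled red) and their receptor chains (open blue), with marker shape for the sample and a dashed line at 1 FPKM. In the 26 upper pairs at least 1 needed receptor chain, or each alternative receptor, lies below 1 FPKM in a sample, and in the 10 lower pairs a full receptor lies above it.

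In some families of enzymes and structural proteins a single member was far above the others, and in others several members were detected at similar levels. Slc2a1 (GLUT1) had 268 ± 13.6 FPKM and stood 30.3 ± 0.353-fold above Slc2a8, the next glucose transporter. Hk1 (74.6 ± 3.05) exceeded Hk2 (34.7 ± 1.4) by 2.15 ± 0.0457-fold, and the other 2 listed hexokinases were below 0.1 FPKM in every sample. The connexin Gja1 had 138 ± 6.34 FPKM and Gjc1 10.3 ± 0.776, with the other 5 listed connexins below 10 counts. Nos2, the inducible nitric oxide synthase, had 43.9, 30.9 and 34.7 FPKM, and was highest in DMSO 1. Anxa1 (620 ± 9.91) and Anxa2 (614 ± 7.99) overlapped in range, and all 3 D cyclins were detected (Ccnd3 at 61.9 ± 1, Ccnd1 at 53 ± 1.48 and Ccnd2 at 29.8 ± 1.12).

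The olfactory and vomeronasal receptor families were nearly silent. They were taken with 12 other families that had no detected member, 14 in all, with 1777 genes in RefSeq and 165 listed, of which 4 were detected. Among the 12 were the trace amine receptors, of whose 15 RefSeq genes none was listed, so none could be detected. The 14 families were gathered after their counts were seen, so this sum follows from the choice and is a description. RefSeq holds 1110 olfactory receptors, and 2 of the 53 listed were detected, Olfr1033 with 14.4, 11.5 and 12.7 FPKM and Olfr613 with 3.4, 3.68 and 3.53. Of 55 listed vomeronasal receptors 2 were detected, Vmn1r58 (5.89 ± 0.275) and Vmn1r132 (2.22 ± 0.515). None of these 4 overlaps another RefSeq gene, but Olfr613, Vmn1r58 and Vmn1r132 had fractional counts (283.07, 238.04 and 62.49 in DMSO 1), so reads that also fit other genes may enter them. The promoters of the 93 listed olfactory and vomeronasal receptors with a single entry had a median of 1 CG. No taste receptor, mucin, defensin, kallikrein, GABA-A receptor subunit or voltage-gated sodium channel was detected, and the 4 listed interferons all had a count of 0. These family counts stand beside 64.5% detected among all listed genes. Of 13 listed keratins 3 were detected, Krt8, Krt18 and Krt80 (3.91 ± 0.481). Of 21 listed voltage-gated potassium channels 5 were detected, led by Kcnh6 (30 ± 1.18), whose span overlaps Gm35971, and Kcnh1 (9.49 ± 0.391). Of 367 listed numbered zinc finger genes 308 were detected, with a median of 4.18 FPKM. Of 274 listed solute carriers 144 were detected, with Slc25a5, the mitochondrial ADP/ATP carrier, highest (644 ± 22.7).

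The samples were alike for most genes. Over 9656 genes that passed the filter on low counts and had a mean count of at least 100, the median coefficient of variation was 4.37% (quartiles 2.69 and 6.77), the 95th percentile was 11.7%, and 37 genes exceeded 20%. That filter left out Ott, with counts of 219, 6.29 and 396, and Gm15085, with 195, 405 and 0, which also had means above 100 and had fractional counts. Among genes that passed it, the 10 with the largest gene-wise BCV were Zfp967 (0.532), Gm14296 (0.501), Zfp966 (0.339), Gm40525 (0.307), Gm42368 (0.218), Rpl36 (0.199), Rpl37rt (0.192), Gm14308 (0.185), Nos2 (0.155) and Tomm5 (0.147). Zfp967 had normalized counts of 72.5, 234.8 and 208.9, Gm14296 had 107, 105 and 270.3, and Zfp966 had 277, 155 and 131. Of these 10 genes, 7 had fractional counts, which arise where a read fits several genes, and how such reads were divided is uncertain. Rpl36, Nos2 and Tomm5 had whole counts. Nos2, with normalized counts of 2960, 2080 and 2348, was highest in DMSO 1, and Tomm5 was lowest there.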

How the data were processed

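Messenger RNA was selected with oligo(dT) beads and sequenced on a BGISEQ-500 instrument. The paper's methods name HISAT and the reference GRCm38.p6. The submitters' processing notes name StringTie 1.3.3b and mm8, which differs from the paper, so no coordinate was taken from the files. The extraction text describes tissue although the samples are cells. The authors deposited expected counts (not normalized, 8.84 to 9% of values not whole) and an expression value per gene. That deposited value was read as FPKM, because count divided by value and library total gave a median of 0.888 to 0.896 of the longest GENCODE M21 transcript. The steps that chose the 16081 listed genes are not given in the sources used here.

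Levels were taken as deposited, over the 3 DMSO samples only, with Python 3.11.15 and pandas 2.3.3. Gene identifiers matched RefSeq (GRCm38.p6) for 15978 genes, and promoter sequences are RefSeq's. BCV was estimated on rounded counts with filterByExpr, TMM (factors 0.998 to 1.003) and an intercept in edgeR 4.0.16 under R 4.3.3, after a check on simulated counts. There is a single group, so no test was made. Named genes are the 20 highest, up to 5 highest of each list or family, defining members at a count of 0, all KDM4 and sex-linked members and the 10 with the largest BCV at a mean count of at least 100. Other genes named, among them Cdh1, Epcam, Sftpc, Ager, Cd274, Il6, Ero1l, Atp5k, the genes of the ligand and receptor pairs, and the promoters shown, were chosen after their values were seen. The samples, lists and families were chosen with earlier results of these data known. The effect of the alternatives is given in the closing part. Some members of the lists are not reported here.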

Additional observations from a re-analysis of the deposited data

How the results depend on the processing

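Precision is limited by 3 samples and, below about 10 counts, by counting error. The 14 silent families, gathered after their counts were seen, had 4 detected genes at 1 FPKM, 7 after FPKM were rescaled to a common sum (TPM), 9 at 10 counts and 23 at 0.1 FPKM in every sample. The share of the 100 highest genes was 36% of FPKM, 19.4% of counts when ranked by counts, and 37.6% among genes with whole counts only. That of the 10 highest was 8.14%, 5.54% and 9.13%. Detected genes numbered 8395 at 5 FPKM, 10795 after rescaling, 11958 at 0.1 FPKM and 13061 at any count. Counts of single lists also moved by over 1.5 times. At 5 FPKM the growth factors fell from 33 to 21, the nuclear receptors from 23 to 14 and the pattern recognition receptors from 11 to 5. At 0.1 FPKM the HOX genes rose from 10 to 19, the collagens from 11 to 20, the fibroblast and mural genes from 4 to 7, the melanocyte and neural genes from 3 to 5 and the endothelial genes from 0 to 2. The ciliated genes rose from 1 to 4 and the GATA factors from 0 to 2 at that level. After rescaling, the melanocyte and neural genes also numbered 5, the ciliated genes 2, the endothelial genes 1 and the GATA factors 1.

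Leaving out each sample in turn gave 10415 to 10450 detected genes, 35.8% to 36.1% for the 100 highest genes, 8.1% to 8.2% for the 10 highest, 19 to 20 of the 20 highest genes, 44 to 45 detected marker genes, 206 to 211 secreted factors and receptors (206 in all), 4 to 5 genes of the silent families and a common BCV of 0.0266 to 0.0473. Without DMSO 1 the BCV was 0.0266, and the cause was not tested. Library totals alone, DESeq2 1.42.0 size factors and other filters gave 0.0395 to 0.0402. No paired analysis was possible because a single group was described.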
